A study of Mus musculus with 4 samples.

Results

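Toll-like receptors are membrane proteins that recognise molecules of microbes, and Cd14 is a co-receptor that hands lipopolysaccharide (LPS) to one of them. The 10 genes described here, Tlr1, Tlr2, Tlr3, Tlr4, Tlr6, Tlr7, Tlr8, Tlr9, Tlr13 and Cd14, were chosen by symbol from the 34745 Ensembl gene IDs of a table of RNA-seq counts, and each symbol matched 1 ID. The cells were primary macrophages grown from the bone marrow of C57BL/6 mice. All 4 libraries came from cells that received LPS, so no library without LPS enters here. In 2 libraries the cells had been transfected with Acly-E14 siRNA, and in the other 2 with control siRNA. The labels do not spell out E14, and the age of the mice, the LPS dose and time and the number of animals or cultures were not found in the sources used here. Acly encodes ATP citrate lyase, which makes acetyl-CoA in the cytosol, and the design asks how transcripts differ after its siRNA.

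Each library held between 21023197 and 21837806 counts. The targeted gene was at 158 and 154 CPM (counts per 1000000, with library totals scaled by trimmed-mean, or TMM, factors) in the control libraries, against 118 and 127 CPM after Acly-E14 siRNA (log2 fold change -0.35, SE 0.060, edgeR adjusted p = 0.0086). On leaving out control library 1 the siRNA target was not called (edgeR adjusted p = 0.058). Of the 11 macrophage markers listed, 10 were at 130.2 CPM or above in every library and Aif1 was at 2.78 to 3.80 CPM. Of the 11, 2 were higher, Cd14 among them, 4 lower and 5 not called. Lyz2 was not called (log2 fold change -0.04), and Cd68 fell by 0.68 on the log2 scale. Fibroblast or stroma markers differed between the groups: 14 of 15 were higher, their summed level was 1161 and 1749 CPM in controls and 3676 and 4571 CPM after Acly-E14 siRNA, and none of the 15 was at 0. Col1a2 and Col1a1, collagen I genes, had log2 fold changes of 1.52 and 1.99. In bulk RNA, fewer cells of a type and less RNA per cell cannot be told apart. The labels tie no library to its own animal or culture, and the spread behind each p-value is therefore that between these libraries and may be technical.

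The receptors fall into groups by place and ligand. Tlr2 pairs with Tlr1 or Tlr6 at the cell surface and binds bacterial lipopeptides, while Tlr4, with its partner MD-2, binds LPS. In endosomes Tlr3 senses double-stranded RNA, Tlr7 and Tlr8 are receptors of the single-stranded RNA branch, Tlr9 senses DNA rich in unmethylated CpG, and Tlr13 senses bacterial ribosomal RNA. Ligand binding recruits the adaptors Myd88 or Ticam1 (TRIF), and the signal ends in NF-kB, AP-1 and interferon regulatory factors. In macrophages LPS itself changes the level of several of these receptors.

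Promoter windows are shown for 4 receptors, because they contrast receptors whose transcript fell (Tlr9 and Tlr1) with receptors that were not called (Tlr2 and Tlr3). Each window runs from 250 bases before to 50 bases after a RefSeq start site on GRCm38.p6 (mm10), written 5′ to 3′ on the gene's strand. Capitals mark every match on either strand to 4 searched motifs: the NF-kB consensus (kB consensus), the interferon-stimulated response element core GAAANNGAA, the PU.1 site GAGGAAGT and the AP-1 site TGACTCA. The Tlr9 window is chr9:106222348-106222647 (plus strand), the Tlr1 window chr5:64933509-64933808 (minus strand), the Tlr2 window chr3:83841559-83841858 (minus strand) and the Tlr3 window chr8:45410331-45410630 (minus strand).
Tlr9: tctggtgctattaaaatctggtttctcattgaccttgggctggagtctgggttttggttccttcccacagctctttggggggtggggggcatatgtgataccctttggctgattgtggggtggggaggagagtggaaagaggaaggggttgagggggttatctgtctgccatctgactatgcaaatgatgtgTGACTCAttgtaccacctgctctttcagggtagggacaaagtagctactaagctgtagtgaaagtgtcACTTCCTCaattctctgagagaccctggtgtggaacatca
Tlr1: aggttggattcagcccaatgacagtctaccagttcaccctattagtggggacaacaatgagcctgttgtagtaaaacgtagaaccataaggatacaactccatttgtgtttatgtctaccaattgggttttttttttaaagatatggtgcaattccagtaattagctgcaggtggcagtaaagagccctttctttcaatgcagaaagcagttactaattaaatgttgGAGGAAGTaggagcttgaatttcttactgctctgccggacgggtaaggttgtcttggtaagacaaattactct
Tlr2: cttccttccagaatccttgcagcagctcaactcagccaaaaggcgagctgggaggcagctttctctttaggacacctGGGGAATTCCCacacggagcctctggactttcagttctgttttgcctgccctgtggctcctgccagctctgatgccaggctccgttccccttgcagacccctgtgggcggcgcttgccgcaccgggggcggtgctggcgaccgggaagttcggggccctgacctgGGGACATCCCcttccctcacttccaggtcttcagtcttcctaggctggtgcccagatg
Tlr3: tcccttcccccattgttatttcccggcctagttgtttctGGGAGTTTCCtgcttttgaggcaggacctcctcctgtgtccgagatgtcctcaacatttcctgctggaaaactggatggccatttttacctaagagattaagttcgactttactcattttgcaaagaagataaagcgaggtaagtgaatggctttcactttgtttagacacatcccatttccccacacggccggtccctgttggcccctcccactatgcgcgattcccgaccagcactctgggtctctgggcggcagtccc

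The Tlr9 window held 1 PU.1 site, 10 bases after the start, and 1 AP-1 site. The Tlr1 window shown held 1 PU.1 site, and the window of another Tlr1 start held none of the 4 motifs. The Tlr2 window held 3 matches to the kB consensus, of which 2 overlap each other, and the Tlr3 window held 1. Of the receptors not printed, Tlr13, which also fell, had no match, Tlr8 had 1 interferon-stimulated response element core and Tlr6 had 2 at 1 of its starts. Of 32851 windows of 300 bases in the table, 8.46% held the kB consensus, 8.56% the interferon-stimulated response element core, 3.20% the PU.1 site and 5.20% the AP-1 site. A match is a description of the letters and not a measured binding site.

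Per length, Cd14 and Tlr2 stood far above the other members. Levels between genes are given as FPKM (counts scaled by gene length and library total), computed from the counts with the gene length implied by the authors' deposited FPKM values. In the controls Cd14 was at 498 ± 9.42 FPKM (SD, n = 2) and Tlr2 at 428 ± 16.6 FPKM. Tlr3 followed at 72.4 ± 2.63 FPKM, Tlr7 at 43.1 ± 0.519 FPKM and Tlr13 at 22.9 ± 0.0712 FPKM. Tlr9 was at 15.5 ± 0.722 FPKM, Tlr1 at 10.4 ± 0.435 FPKM, Tlr6 at 8.94 ± 0.152 FPKM and Tlr8 at 5.44 ± 0.0406 FPKM. The lowest was Tlr4, the LPS receptor gene itself, at 2.02 ± 0.365 FPKM. No neighbours in this order overlapped between the control libraries. After Acly-E14 siRNA, Tlr6 (8.60 ± 0.951 FPKM) overlapped Tlr1 (7.56 ± 0.731 FPKM). Tlr4 spread from 1.82 to 9.46 FPKM there, a range that spanned Tlr6, Tlr1, Tlr9 and Tlr8, and could not be placed in the order.

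The order of the middle members rested on the gene length. The implied length of Tlr7 was 11508 bases against 4082 merged exon bases in the GENCODE M21 annotation, 2.82 times as long. For Tlr8 it was 2.18 times and for Tlr1 1.84 times as long, while Tlr2 and Tlr9 had the same length in both. With the GENCODE lengths, control Tlr7 was at 121 ± 1.46 FPKM and moved above Tlr3 (79.4 ± 2.88 FPKM), and Tlr1 (19.2 ± 0.801 FPKM) moved above Tlr9. Cd14 and Tlr2 stayed at the top, at 452 and 428 FPKM, and Tlr4 stayed at the bottom, at 2.46 ± 0.445 FPKM. Comparisons of 1 gene between libraries do not depend on its length.

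All 10 members passed the filter on low counts. By edgeR's quasi-likelihood test, with a call at an adjusted p under 0.05 over all 13108 genes tested, 1 member was higher after Acly-E14 siRNA, 3 were lower and 6 were not called. Leaving out 1 library at a time gave 1 to 2 higher and 2 to 4 lower: Tlr4 joined the higher without Acly-E14 siRNA library 1, Tlr7 joined the lower without either Acly-E14 siRNA library, and Tlr1 left them without control library 1. Of all genes tested, 33.2% were called, 17.3% higher and 15.9% lower, so a share of 4 in 10 is near the background. The numbers of higher and lower genes were 2264 and 2090, and without TMM factors 2776 and 1446, or with limma on log2(FPKM + 1) 2669 and 1389, while the members' counts were 1 and 3 in all of these. The groups did not overlap for 7 of the 10 members, against 70.6% of all genes tested. The members' median log2 fold change was -0.11, and that of all genes tested was 0.0027. The plot of levels by library shows the 4 values of each gene.

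**Figure D1:**
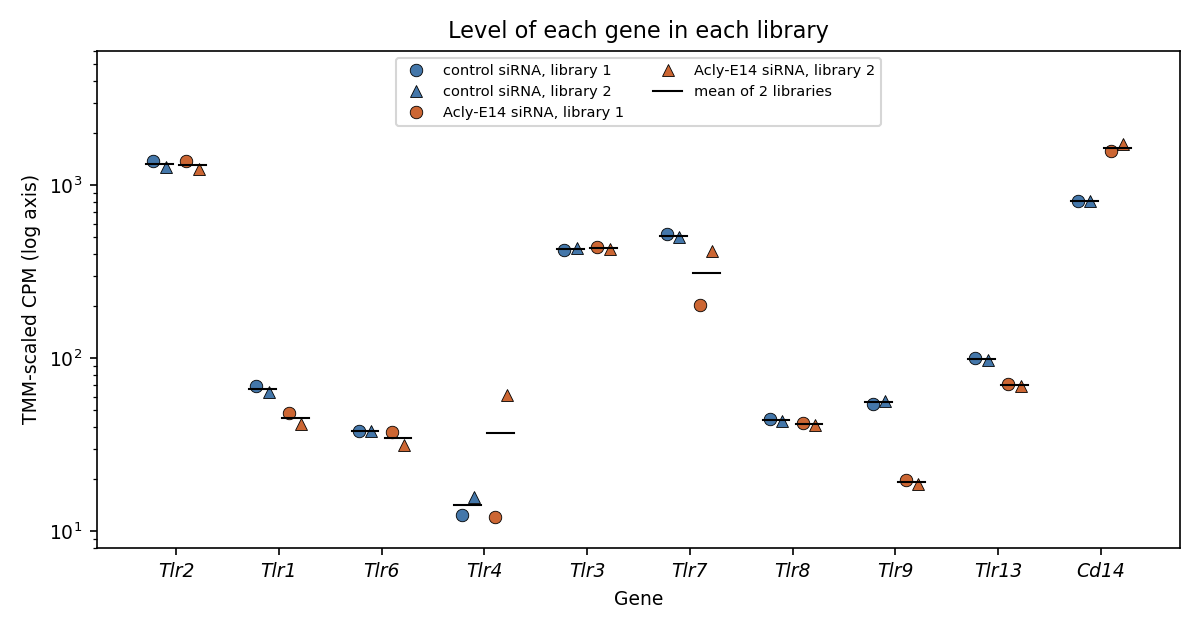
TMM-scaled CPM of the 10 genes on a log axis, 1 point per library (blue, control siRNA; orange, Acly-E14 siRNA; circles, library 1; triangles, library 2), with lines at the mean of each group. Of the called genes, Cd14 is higher and Tlr1, Tlr9 and Tlr13 are lower in both Acly-E14 siRNA libraries. Tlr6, Tlr7 and Tlr8, not called, also lie below both controls in both. For Tlr4 and Tlr7 the orange points lie far apart.

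Cd14 rose. This gene (chromosome 18, 36725067 to 36726798, minus strand) encodes the surface protein that takes LPS from LPS-binding protein and passes it to the Tlr4 and MD-2 complex, and it also serves other Toll-like receptors. It was at 806 and 810 CPM in the control libraries and at 1573 and 1732 CPM after Acly-E14 siRNA. Both Acly-E14 siRNA libraries lay above both controls, by 2.05-fold (log2 1.03, SE 0.066, edgeR adjusted p = 0.00084). The ratio of control library 2 to control library 1 was 1.005 for Cd14. The summed fibroblast or stroma markers were at 1161 CPM in control library 1 and at 1749 CPM in control library 2. From Acly-E14 siRNA library 1 to library 2, Cd14 went from 1573 to 1732 CPM and these summed markers from 3676 to 4571 CPM. The higher fibroblast or stroma markers moved in the same libraries as Cd14, and their part in its rise was not tested.

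Of the receptors that form lipopeptide sensors, Tlr1 was lower and its partner genes were not called. Tlr1 (chromosome 5, 64924679 to 64933563, minus strand) was at 68.9 and 63.6 CPM in controls and at 48.5 and 41.7 CPM after Acly-E14 siRNA. Both values after Acly-E14 siRNA were below both controls, and the level was 68.1% of the control level (log2 -0.55, SE 0.094, edgeR adjusted p = 0.0086). On leaving out control library 1, Tlr1 was not called (edgeR adjusted p = 0.053). Tlr2 (chromosome 3, 83836272 to 83841767, minus strand), the shared partner, was at 1385 and 1283 CPM in controls and at 1387 and 1236 CPM after Acly-E14 siRNA. Its groups overlapped, and the 95% interval of its log2 fold change was -0.22 to 0.17. Tlr6 (chromosome 5, 64952031 to 64960097, minus strand), the other partner, was at 38.0 and 38.1 CPM in controls and at 37.3 and 31.5 CPM after Acly-E14 siRNA (log2 fold change -0.15, 95% interval -0.40 to 0.10).

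Tlr1 and Tlr6 lie 18.5 kilobases apart and are close copies of each other. Of the 50-base words in the GENCODE transcripts of Tlr1, 15.4% also occur in other genes, and of those of Tlr6, 12.3%. The 2 genes share 454 such words. How reads from such stretches were counted is not stated in the labels, so the values of both genes are uncertain to that extent. Of the other 8 members, 7 shared no 50-base word with another gene and Tlr4 shared 1.

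Tlr4, which encodes the signalling receptor for LPS (chromosome 4, 66827584 to 66930284, plus strand), gave no stable difference between the groups. It had 251 and 337 counts in controls, 263 in Acly-E14 siRNA library 1 and 1348 in Acly-E14 siRNA library 2. In CPM these were 12.5, 15.8, 12.03 and 61.6. The first of the Acly-E14 siRNA libraries lay below both controls and the second lay above both. With all libraries the log2 fold change was 1.38 (SE 0.69, 95% interval -0.31 to 3.07, edgeR adjusted p = 0.17). Without Acly-E14 siRNA library 2 it was -0.23 (edgeR adjusted p = 0.45), and without library 1 it was 2.13 (edgeR adjusted p = 0.0032), so that 1 library decided both the direction and the call. The ratio of Cd14 to Tlr4 in FPKM was 278 and 221 in controls and 562 and 121 after Acly-E14 siRNA, on both sides of the controls (exact two-sided permutation p = 1, the smallest possible being 0.33).

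Among the endosomal receptors, Tlr9 had the largest fall of the 10 members. Tlr9 (chromosome 9, 106222598 to 106226883, plus strand), the sensor of CpG DNA, was at 54.4 and 56.8 CPM in controls and at 19.7 and 18.7 CPM after Acly-E14 siRNA. The libraries within each group lay close together, and the level after Acly-E14 siRNA was 34.5% of the control level (log2 -1.53, SE 0.079, edgeR adjusted p = 0.00060). Tlr13 (chromosome X, 106143204 to 106160493, plus strand), the sensor of bacterial ribosomal RNA, fell less. It was at 99.7 and 98.0 CPM in controls and at 70.7 and 68.6 CPM after Acly-E14 siRNA, which is 70.5% of the control level (log2 -0.50, SE 0.057, edgeR adjusted p = 0.0027). The calls of Tlr9, Tlr13 and Cd14 were kept without any 1 of the 4 libraries, with edgeR adjusted p-values of at most 0.010, 0.024 and 0.014 over all alternatives tried.

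Tlr9 and Tlr7 are also genes of plasmacytoid dendritic cells and B cells, so markers of these cells were read in the same libraries. Of 5 plasmacytoid dendritic cell markers, 3 were tested and 2 of them, Tcf4 and Ccr9, were lower (log2 fold changes -0.38 and -1.16). Neither was called on leaving out control library 1 (edgeR adjusted p = 0.12 and 0.058) or the second Acly-E14 siRNA library (0.10 and 0.069). Ccr9 was also not called without the first Acly-E14 siRNA library (0.067), nor Tcf4 with no filter on low counts (0.053) or with limma on FPKM (0.15). Their summed level was 129 and 118 CPM in controls and 101 and 88.7 CPM after Acly-E14 siRNA, nearly all of it from Tcf4, and the defining marker Siglech had 0 counts in every library. Ccr9 had 81 and 76 counts in controls and 36 and 38 after Acly-E14 siRNA. Bcl11a, the other tested marker of these cells, went the opposite way. It had 23 and 32 counts in controls and 38 and 45 after Acly-E14 siRNA. Its groups did not overlap in CPM, but it was not called (log2 fold change 0.52, edgeR adjusted p = 0.22). Of 5 B cell markers, only Pax5 was tested and it was not called, and the summed level was between 2.15 and 4.84 CPM in all libraries. The part of Ccr9-expressing cells in the falls of Tlr9 and Tlr13 was not tested.

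Tlr3 and Tlr8 were not called and varied little. Tlr3 (chromosome 8, 45395665 to 45411080, minus strand), the sensor of double-stranded RNA, was at 421 and 433 CPM in controls and at 438 and 427 CPM after Acly-E14 siRNA, with overlapping groups. The 95% interval of its log2 fold change was -0.11 to 0.15. Tlr3 shares 381 exon bases with another gene, Gm45542. How reads from shared bases were counted, and with what use of strand, is not given in the sources used here. Tlr8 (chromosome X, 167242696 to 167264329, minus strand) was at 44.6 and 43.2 CPM in controls and at 42.0 and 41.2 CPM after Acly-E14 siRNA (log2 fold change -0.08, 95% interval -0.25 to 0.09).

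Tlr7, which encodes the single-stranded RNA sensor (chromosome X, 167304929 to 167330558, minus strand), was lower in both Acly-E14 siRNA libraries but by very different amounts. It had 10513 and 10736 counts in controls, 4411 in Acly-E14 siRNA library 1 and 9163 in Acly-E14 siRNA library 2. In CPM these were 522, 502, 202 and 419. The groups did not overlap, yet with all libraries Tlr7 was not called (log2 fold change -0.72, SE 0.31, 95% interval -1.48 to 0.03, edgeR adjusted p = 0.12). With Acly-E14 siRNA library 1 left out it was called lower at -0.29 (edgeR adjusted p = 0.044), and with library 2 left out at -1.34 (edgeR adjusted p = 0.0031). In these fits the lone library is assumed to vary as the controls do. Tlr8, its neighbour 40.6 kilobases away on the X chromosome, had 917 and 902 counts in the same libraries.

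**Figure D2:**
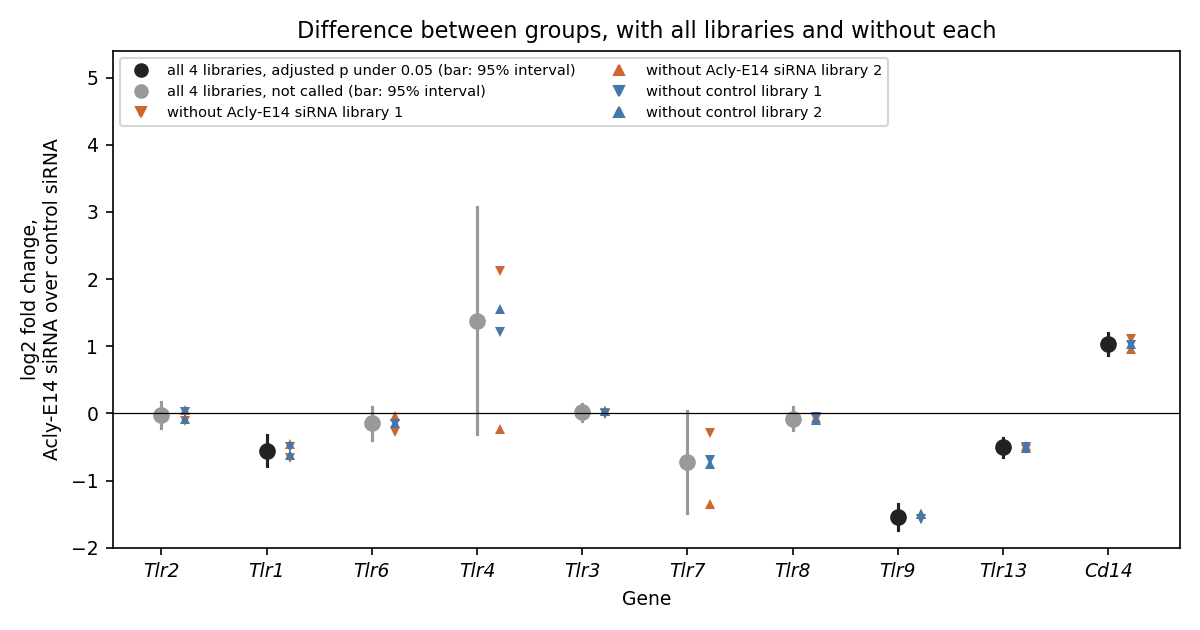
Log2 fold change (Acly-E14 siRNA over control siRNA) of each gene from edgeR with all 4 libraries, as a point with its 95% interval (black, adjusted p under 0.05; grey, not called), and without each library in turn, as small triangles. The estimates of Cd14, Tlr9 and Tlr13 barely move, and those of Tlr4 run from -0.23 to 2.13 with the Acly-E14 siRNA library that is left out.

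Replicate libraries disagreed for Tlr4 and Tlr7, in the Acly-E14 siRNA group only. Acly-E14 siRNA library 2 was 5.11-fold above library 1 for Tlr4 and 2.07-fold for Tlr7. The exact 95% intervals of these ratios, which cover counting error only and use library totals, were 4.54 to 5.94 and 2.03 to 2.18. Among tested genes of similar mean level (1 of 3 bins of equal size), Tlr4 stood at percentile 99.9 and Tlr7 at percentile 99.5 of the difference between these libraries. In the controls the same ratios were 1.26 for Tlr4 and 0.962 for Tlr7, and 0 members were above the 95th percentile. The difference within a group was also larger than the difference between groups for Tlr2, Tlr3 and Tlr6, whose differences between groups were small.

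Few genes with a mean at or above that of Tlr4 behaved this way. Of 5161 tested genes with a mean at least as high, 35 differed more than 2-fold between the Acly-E14 siRNA libraries and 6 more than 4-fold, Tlr4 included. In the controls the counts were 27 and 2. Of all 13108 genes tested, 317 differed more than 2-fold between the Acly-E14 siRNA libraries and 60 more than 4-fold. In the controls these counts were 528 and 81. Plagl2, Mob1a, mt-Atp6 and G530011O06Rik, chosen after their values were seen, are among the 6 with a mean at or above that of Tlr4. G530011O06Rik fell from library 1 to library 2 in both groups, with 1653 and 226 counts in controls and 1178 and 149 after Acly-E14 siRNA. Plagl2 had 4789 and 4849 counts in controls, 1197 in Acly-E14 siRNA library 1 and 6446 in library 2. Mob1a had 9721 and 9308 counts in controls, 8663 in library 1 and 1977 in library 2. The departing library was thus library 2 for Tlr4 and Mob1a and library 1 for Tlr7 and Plagl2.

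**Figure D3:**
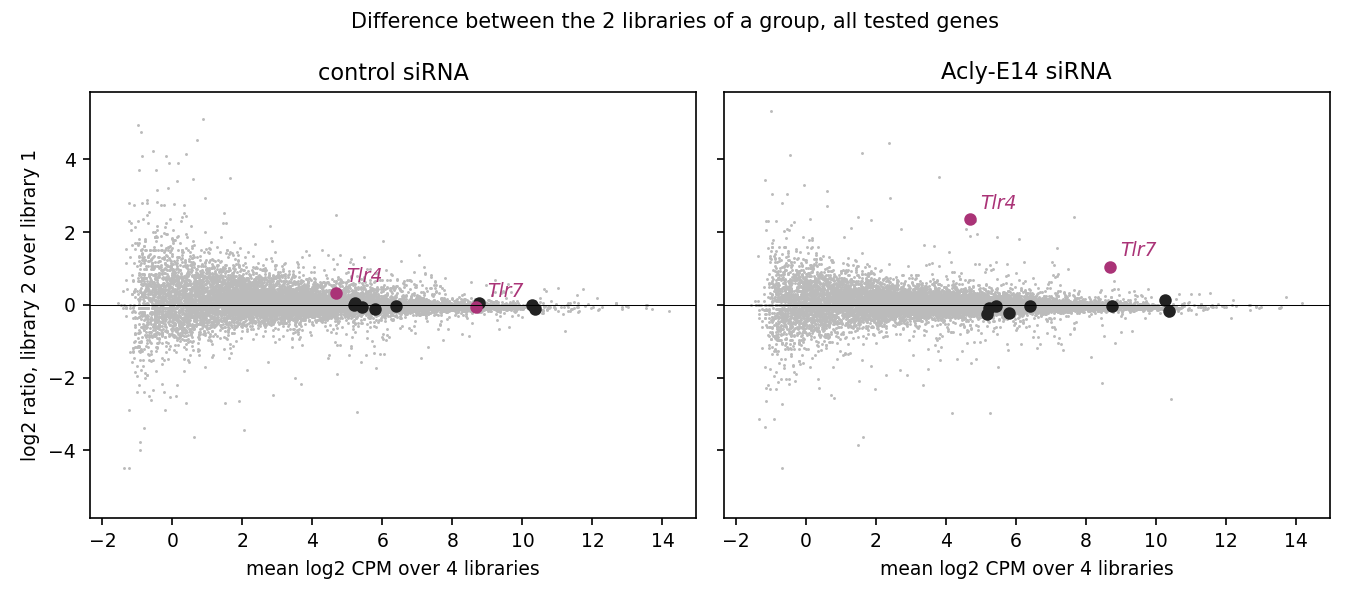
Log2 ratio of library 2 over library 1 against the mean log2 CPM over the 4 libraries, for controls (left) and Acly-E14 siRNA (right). Grey points are all tested genes and large points the 10 genes described, with Tlr4 and Tlr7 in purple. In the right panel Tlr4 (2.35) and Tlr7 (1.05) lie above the cloud, and in the left panel they lie within it.

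Tlr2 made up most of the summed level of the 9 receptor transcripts, and whether the groups overlapped in that sum depended on the scale. With the implied gene lengths they did: the sum was 619 and 599 FPKM in controls and 616 and 594 FPKM after Acly-E14 siRNA (exact two-sided permutation p = 0.667). With GENCODE lengths they did not, at 720.7 and 700.0 FPKM against 670.6 and 684.9 FPKM, nor with TMM-scaled CPM, at 2646 and 2534 against 2257 and 2345 (exact two-sided permutation p = 0.33 for each). With the implied lengths Tlr2 made up 71.1% and 69.5% of the sum in controls and 76.6% and 71.7% after Acly-E14 siRNA. With GENCODE lengths its share was 61.1% and 59.5% in controls and 70.3% and 62.2% after Acly-E14 siRNA. In TMM-scaled CPM it was 52.3% and 50.6% in controls and 61.5% and 52.7% after Acly-E14 siRNA. The values that follow use the implied lengths. Tlr9 made up 2.42% and 2.67% of the sum in controls and 0.943% and 0.939% after Acly-E14 siRNA. The 5 endosomal receptors together were at 157 and 161 FPKM in controls and at 125 and 144 FPKM after Acly-E14 siRNA, with no overlap (exact two-sided permutation p = 0.33, the smallest that 2 against 2 libraries allow). The ratio of Cd14 to Tlr2 was 1.12 and 1.21 in controls and 2.17 and 2.69 after Acly-E14 siRNA (exact two-sided permutation p = 0.33).

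**Figure D4:**
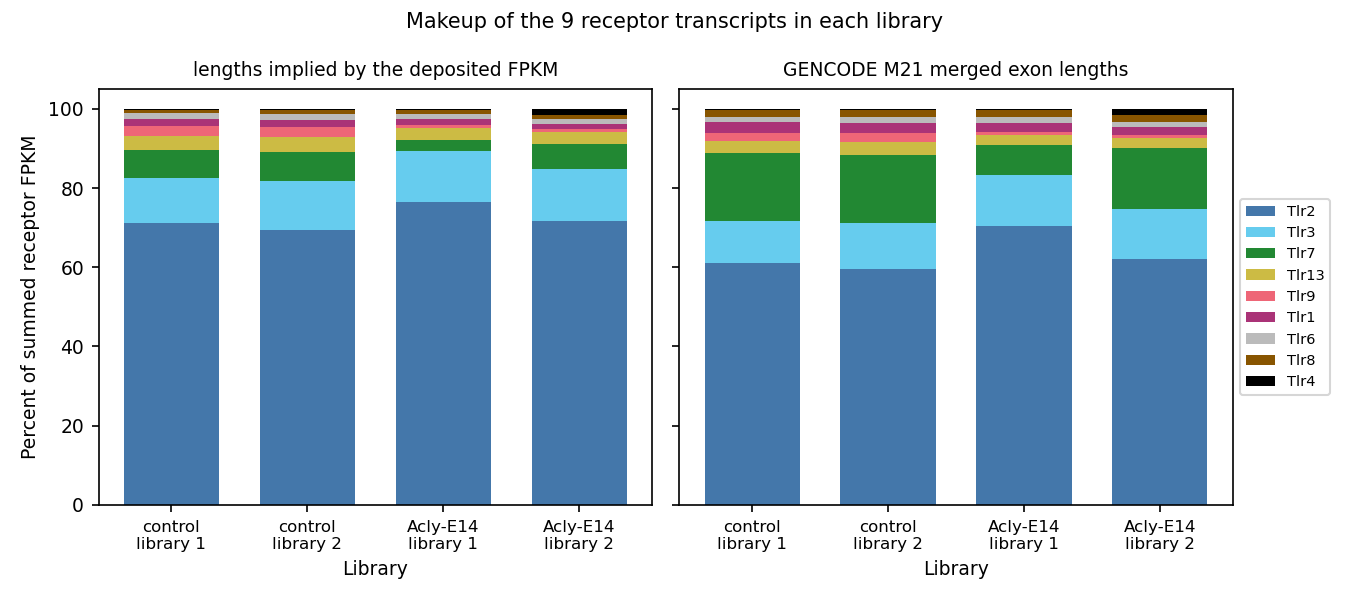
Share of each receptor in the summed FPKM of the 9 receptors, in percent, for each library, with the gene lengths implied by the deposited FPKM (left) and with GENCODE M21 lengths (right). Tlr2 fills 69.5% to 76.6% of each bar on the left and less on the right, where Tlr7 takes a larger share.

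The remaining mouse receptors had at most 75 counts in any library. Tlr11, a sensor of protozoan profilin, had 75 and 73 counts in controls and 42 and 34 after Acly-E14 siRNA, and was called lower (log2 -1.04, edgeR adjusted p = 0.022). Tlr11 was not called when any 1 of the 4 libraries was left out (edgeR adjusted p between 0.052 and 0.13) and with DESeq2 (0.062). Tlr5, the flagellin receptor, had 1 and 10 counts in controls and 26 and 23 after Acly-E14 siRNA, and was not called (edgeR adjusted p = 0.063). Without control library 2 it was called higher (edgeR adjusted p = 0.021). Tlr12 had 0 counts in every library, which allows a level of up to 0.149 CPM in control library 1, the highest such limit of the 4.

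Genes whose 4 values lay nearest to those of Cd14 and Tlr9 were found by the Euclidean distance between log2 CPM values centred on each gene's mean, over 4 libraries and 7543 genes with a mean of at least 10 CPM. Nearest to Cd14 were S100a6 (distance 0.067), Tead1 (0.071) and C4b (0.077), with log2 fold changes of 0.99, 1.09 and 1.01. C4b has a close copy, C4a, so its count is less certain. Nearest to Tlr9 were Lmo2 (distance 0.052), Eps15 (0.061) and Vegfb (0.070), with log2 fold changes of -1.49, -1.48 and -1.57. Over 4 libraries many genes have such a pattern, so the names describe only these libraries.

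Accessory proteins help the receptors bind ligand or reach their place in the cell. Of 22 tested accessory, trafficking and processing genes, 9 were lower, 4 higher and 9 not called, with a median log2 fold change of -0.18, against 15.9% lower, 17.3% higher and a median of 0.0027 over all genes tested. Without 1 library, 3 to 5 were lower and 1 was higher, whichever of the 4 was left out, and in those fits 982 to 1400 of all genes tested (13384 to 13533) were lower and 1045 to 1815 higher. Among the LPS-binding partners, Lbp, the LPS-binding protein gene, was higher at low counts, with 16 and 15 in controls and 44 and 48 after Acly-E14 siRNA, but not when any 1 library was left out (edgeR adjusted p between 0.051 and 0.092). Ly96, which encodes MD-2, was not called (log2 fold change -0.28, edgeR adjusted p = 0.068). Cd36, a scavenger receptor that works with Tlr2, fell by 0.46 on the log2 scale (edgeR adjusted p = 0.0042).

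Endosomal receptors need Unc93b1 for transport and lysosomal proteases for cleavage. Unc93b1 was lower by a small amount (log2 fold change -0.22, edgeR adjusted p = 0.025), and was not called when any 1 library was left out (edgeR adjusted p between 0.061 and 0.13), without TMM factors (0.074) or by limma on FPKM (0.064). The protease genes Ctsk (cathepsin K) and Lgmn (legumain) fell by 1.44 and 0.53 on the log2 scale. Pld4, which encodes an endosomal nuclease that degrades ligands of Tlr9, rose 2.22-fold, with 421 and 460 counts in controls and 1032 and 1029 after Acly-E14 siRNA. Cnpy4, a chaperone gene, was higher (log2 0.52, edgeR adjusted p = 0.041), but not when any 1 library was left out (edgeR adjusted p between 0.063 and 0.22), with DESeq2 (0.14) or with no filter on low counts (0.064).

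Downstream of the receptors, 7 of 21 adaptor and proximal kinase genes were lower, 0 were higher and 14 were not called, with a median log2 fold change of -0.10. Of all genes tested, 33.2% were called, 15.9% lower and 17.3% higher. The share of 7 in 21 called in either direction is near this background, but all 7 were lower. At an unadjusted p under 0.05 edgeR gave 0 higher and 8 lower, and the share of all genes at that threshold was not taken. DESeq2 called 0 higher and 6 lower, against 1739 higher and 1661 lower of 18730 genes with a count above 0. Ticam2, which encodes the TRAM adaptor that links Tlr4 to TRIF, fell by 0.83 on the log2 scale (edgeR adjusted p = 0.0044), from 908 and 844 counts to 558 and 480. Tab2, a subunit of the TAK1 kinase complex, fell by 0.70 and Pik3ap1, an adaptor to phosphoinositide 3-kinase, by 0.65. Of 12 tested negative regulators, 4 were lower, 3 higher and 5 not called, with a median log2 fold change of -0.25, against the same 15.9% and 17.3% of all genes tested. Without Acly-E14 siRNA library 2, 2 were lower. Tollip, which restrains IRAK signalling, fell by 0.53 on the log2 scale, Cd300a, an inhibitory receptor gene, by 0.84 and Cyld, a deubiquitinase gene, by 0.36. Il1rl1, the interleukin-33 receptor gene, rose 4.72-fold from 19 and 20 counts, and Pirb, an inhibitory receptor gene with near-identical relatives, rose 1.33-fold. Nlrc3 was higher (log2 0.67, edgeR adjusted p = 0.033). The calls of Cyld and Nlrc3 were lost on leaving out some libraries: Cyld without the first control library (edgeR adjusted p = 0.059) or the second Acly-E14 siRNA library (0.062), and Nlrc3 without control library 2 (0.10), Acly-E14 siRNA library 1 (0.075) or library 2 (0.17). Nlrc3 was also not called with DESeq2 (0.085) or with no filter on low counts (0.057).

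Markers of other cells were read beside these results. Of 4 endothelial markers, 2 were tested and both were lower, with Kdr falling from 5581 and 5746 counts to 2247 and 2138, and Pecam1 had at most 7 counts in any library. Of 8 neutrophil markers, 3 were tested, of which 2 were higher and 1 lower, and Ngp was at 0 in every library. Of 6 conventional dendritic cell markers, Zbtb46 and Batf3 were tested and neither was called. None of 5 T or NK cell markers was tested, and Cd3e, Ncr1 and Nkg7 were at 0 in every library.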

How the data were processed

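RNA-seq of 4 libraries was analysed, 2 per group. The authors deposited whole-number counts per Ensembl gene, not normalized per the file headers, and FPKM values. Of 49103 deposited FPKM values above 0, 49103 matched the count, a whole-number length and the library total within 0.001. The length of each gene came from its own deposited FPKM in the library of highest count. The match of that value is therefore no independent check. 1 FPKM column carries no replicate number and was not used. The submitters' processing notes name HISAT2, StringTie 1.3.0, edgeR and mm10, without roles. Which program counted the reads, on what annotation and with what strand setting, is not stated. Symbols matched 34267 of 34745 IDs. Coordinates are GENCODE M21 (mm10).

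Counts were tested with edgeR 4.0.16 (filterByExpr with minimum count 10, TMM factors, quasi-likelihood F test, no covariate) over 13108 genes, with Benjamini-Hochberg adjustment. SEs and 95% intervals follow from the F statistic. CPM are TMM-scaled; FPKM use library totals. The test was tried on simulated counts. Alternatives were a replicate block, leaving out each library, DESeq2 1.42.0, its size factors in edgeR, library totals alone, no filter, limma 3.58.1 on log2(FPKM + 1), and an adjusted p under 0.1. GENCODE lengths, and all alternatives for genes other than the members and Acly, were added after the data were seen. The members and lists were chosen with earlier results of these data known.

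Genes were named by rule: the members, the other receptors, in each pathway list the 3 called genes of smallest p in each direction, the most abundant markers, and the 3 nearest patterns of the members with the largest rise and fall. Ly96, Unc93b1, Siglech and further markers at or near 0 were added for their role. Cd180, Ly86, Irak2, Plagl2, Mob1a, mt-Atp6, G530011O06Rik and Bcl11a were added after their values were seen. Tasl, Triad3 and Lilrb4a matched no row by symbol. A member was noted for disagreeing libraries above the 95th percentile of its bin of mean level (3 equal bins), or where the difference within a group exceeded that between groups, on log2 CPM with a prior count of 0.5. Promoter windows are from RefSeq, with entries for 7 of the members used.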

Additional observations from a re-analysis of the deposited data

How the results depend on the processing

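Cd14, Tlr9 and Tlr13 kept direction and call under all 10 alternatives, with log2 fold changes of 0.96 to 1.12, -1.57 to -1.30 and -0.52 to -0.39. With a replicate block 1 member was higher and 3 were lower, and the block changed no member's call. The labels give no shared source for libraries of equal number, and whether they have one was not tested. The correlation of same-numbered deviations was 0.17 across 11977 genes (2 pairs). With the block, 2514 of all genes were higher and 2382 lower. Without 1 library, 1 to 2 members were higher and 2 to 4 lower. Without 1 library, log2 fold changes ran from -0.11 to 0.056 for Tlr2, -0.0070 to 0.038 for Tlr3, -0.23 to 2.13 for Tlr4, -0.54 to 0.32 for Irak2 and -0.40 to -0.30 for Acly. With library totals, Tlr2, Tlr8 and Irak2 were at 0.067, 0.014 and 0.045, and with limma Tlr2 and Tlr8 were at 0.066 and 0.011, all reversed in sign. The log2 ratio of the summed receptor level was -0.0097 with FPKM, -0.17 with TMM-scaled CPM, -0.068 with GENCODE lengths, and -0.036 to 0.017 without 1 library. Of the accessory and trafficking genes (4 higher, 9 lower), 1 was higher and 3 to 5 lower without 1 library, 2 were higher with DESeq2 and 2 with no filter, and 5 were lower with library totals and 4 with limma. Of the negative regulators, 2 to 5 were lower and 2 to 3 higher without 1 library. Over all genes, 2264 were higher and 2090 lower, against 1175 and 982 when control library 1 and 1815 and 1400 when control library 2 was left out, and for the Acly-E14 siRNA group 1477 and 1387 when library 1 and 1045 and 1043 when library 2 was left out. The lower counts with 3 libraries go with fewer samples, and other causes were not tested. Depth limits Tlr5, Tlr11, Tlr12 and Lbp, each with at most 75 counts in a library.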

Other observations

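Cd180 and Ly86 encode the RP105 and MD-1 pair, relatives of Tlr4 and MD-2. Cd180 had 14304 and 14605 counts in controls and 13248 and 12413 after Acly-E14 siRNA (log2 fold change -0.25, edgeR adjusted p = 0.025). Ly86 had 1669 and 1790 counts in controls and 1609 and 1440 after Acly-E14 siRNA (log2 fold change -0.26, edgeR adjusted p = 0.042). Both missed the threshold in edgeR without control library 1 (adjusted p = 0.13 and 0.13), control library 2 (0.070 and 0.13) or Acly-E14 siRNA library 2 (0.12 and 0.21), and with library totals (0.057 and 0.12). They also missed it with limma (0.057 and 0.099), and Ly86 with DESeq2 (0.074) and with no filter (0.077).

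Irak2, a kinase gene of the Myd88 complex chosen after its values were seen, also differed between the Acly-E14 siRNA libraries. It had 3052 and 2658 counts in controls, 3773 in Acly-E14 siRNA library 1 and 2075 in library 2, above and below both controls. It was not called (log2 fold change -0.05, edgeR adjusted p = 0.91), and without Acly-E14 siRNA library 1 it was called lower (log2 fold change -0.54, edgeR adjusted p = 0.042).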
